A study of Homo sapiens with 12 samples.

Results

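The 6 metallothionein genes MT2A, MT1E, MT1F, MT1G, MT1M and MT1X were examined out of the 24559 gene symbols counted in polysome-associated RNA of triple-negative breast cancer (TNBC) cell lines. TRMT112 is a cofactor that stabilizes and activates several methyltransferases acting on rRNA, tRNA and proteins, and the study asked how changing its level alters the mRNAs on polysomes. MDA-MB-231 and SUM159 cells carried a lentiviral shRNA vector against TRMT112 (KD) or the control labelled empty vector (EV), which the methods describe as a non-silencing shRNA, and both arms were selected with puromycin. BT549 cells carried a TRMT112 expression plasmid (OE) or its empty vector (EV) and were selected with G418. SUM159 medium held 5% serum with 1 µg/mL hydrocortisone and 5 µg/mL insulin, MDA-MB-231 medium 5% serum and BT549 medium 10% serum, with neither hormone listed, so a difference between lines cannot be told apart from one between media. Whether each culture was a clone or a pool is not given in the sources used here. Each of the 6 groups had 2 libraries, which the labels number without saying whether they came from separate cultures, so the spread between them may be technical. The 6 genes were chosen by symbol, from a family whose counts were already known to differ between these groups. Their levels and differences are therefore given as a description, with no test.

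Metallothioneins are small proteins rich in cysteine that bind zinc and copper in clusters of metal and thiolate, and they buffer the free level of both metals. Their genes are classically switched on by zinc through the zinc finger factor MTF1, which binds short metal response elements in their promoters, and MT2A is also a textbook target of glucocorticoid hormones. MT2A is the widely expressed form in human tissues, while the MT1 genes are a series of recent copies that differ in their use between tissues.

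All 6 are protein-coding genes within 75.6 kb of chromosome 16 (GRCh38). In order along the chromosome they are MT2A (chr16:56608584-56609497), MT1E (chr16:56625475-56627112), MT1M (chr16:56632659-56633981), MT1F (chr16:56657731-56660698), MT1G (chr16:56666730-56668065) and MT1X (chr16:56682470-56684196). MT1G lies on the minus strand and the others on the plus strand. The coding sequences of the 4 members with usable counts are printed from the start to the stop codon of the most counted GENCODE transcript, with capitals at each base that differs from MT2A, to show how little separates the copies that the counts have to tell apart.
MT2A: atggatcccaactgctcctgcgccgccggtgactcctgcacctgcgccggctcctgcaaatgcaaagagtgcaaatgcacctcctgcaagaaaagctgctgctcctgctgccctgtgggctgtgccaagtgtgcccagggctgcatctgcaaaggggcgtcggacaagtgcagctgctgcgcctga
MT1E: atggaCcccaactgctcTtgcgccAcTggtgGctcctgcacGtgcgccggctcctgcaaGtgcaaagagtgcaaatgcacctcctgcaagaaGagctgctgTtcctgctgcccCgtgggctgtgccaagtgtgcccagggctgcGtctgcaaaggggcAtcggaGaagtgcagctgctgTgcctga
MT1X: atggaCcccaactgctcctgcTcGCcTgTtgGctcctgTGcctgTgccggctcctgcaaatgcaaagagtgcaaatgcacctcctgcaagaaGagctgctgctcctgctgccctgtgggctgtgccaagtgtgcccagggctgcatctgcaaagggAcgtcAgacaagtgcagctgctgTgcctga
MT1F: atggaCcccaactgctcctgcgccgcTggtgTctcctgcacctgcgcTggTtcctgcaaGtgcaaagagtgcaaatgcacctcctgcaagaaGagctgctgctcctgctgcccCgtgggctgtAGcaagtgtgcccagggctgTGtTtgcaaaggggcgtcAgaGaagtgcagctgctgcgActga
Each coding sequence is 186 bases long and holds 61 codons before the stop, of which 20 code for cysteine. MT1E and MT1X differ from MT2A at 14 bases each (92.5% identity), and MT1F differs at 16 (91.4%). None of these alignments needed a gap. MT1G differs from MT2A at 9 bases and MT1M at 19.

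The copies are distinct over longer stretches. Of all windows of 50 bases in the main transcript, 11.1% in MT2A, 5.34% in MT1E, 6.12% in MT1F, 14.6% in MT1M, 20.2% in MT1G and 51.0% in MT1X also occur in a transcript of another gene symbol. Of windows of 100 bases, none in MT2A, MT1E, MT1F, MT1G or MT1M is shared, and in MT1X 67 of 305 are shared with the long non-coding RNA ENSG00000259827 alone. That RNA lies over MT1X on the same strand and received 0.0462 counts in all 12 libraries together. The deposited transcript counts are fractional. Summed per gene over the 12 libraries, they were 5708.01 for MT1E, 384 for MT1F, 6392.95 for MT1X and 68535.8 for MT2A, close to whole numbers. The fractions thus lay mostly between transcripts of the same gene. How reads of stretches shared between members were assigned is not given in the sources used here, so small differences between members carry that uncertainty.

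MT2A and MT1X, the most abundant members of SUM159, have an entry in the RefSeq promoter table (GRCh38.p14), and the 250 bases before their starts are shown, as the sequence through which zinc is known to act on the family, with capitals at each metal response element core. The core was searched as TGCACNC or TGCGCNC on both strands, and no matches overlapped. The MT2A window is chr16:56608334-56608583 and the MT1X window chr16:56682220-56682469, both on the plus strand.
MT2A promoter: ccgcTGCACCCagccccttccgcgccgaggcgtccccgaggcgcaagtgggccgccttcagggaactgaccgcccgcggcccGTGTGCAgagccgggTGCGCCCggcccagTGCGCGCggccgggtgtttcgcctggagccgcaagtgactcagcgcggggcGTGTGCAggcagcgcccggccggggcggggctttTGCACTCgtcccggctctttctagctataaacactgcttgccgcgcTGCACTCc
MT1X promoter: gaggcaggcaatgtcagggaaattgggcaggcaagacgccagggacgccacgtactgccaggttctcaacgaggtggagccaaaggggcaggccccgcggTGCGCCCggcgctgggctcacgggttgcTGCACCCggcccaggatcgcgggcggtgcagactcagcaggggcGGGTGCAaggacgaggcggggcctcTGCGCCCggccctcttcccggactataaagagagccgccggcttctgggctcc
The core occurs 7 times in the MT2A window, 5 on the forward and 2 on the reverse strand, and 4 times in the MT1X window, 3 forward and 1 reverse. In MT2A the match nearest to the gene begins 8 bases before the start, and the next 54 bases before it. In MT1X the nearest begins 53 bases before the start. Of 35116 RefSeq promoter windows of this length, 24.8% hold the core at least once, 0.370% hold it 4 times or more and 0.0313% hold it 7 times or more. A match of letters is no evidence of binding. MT1E, MT1F, MT1G and MT1M were not analysed here for promoter sequence.

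The 12 libraries held between 22954226 and 27434677 expected counts each. TRMT112 itself followed the labels: its mean normalized count was 4042 ± 148 in EV and 1723 ± 57.9 in KD of MDA-MB-231, 6449 ± 165 and 3804 ± 148 in SUM159, and 3081 ± 8.14 in EV and 4303 ± 23.9 in OE of BT549 (SD, n = 2 each). A normalized count is the expected count scaled by trimmed mean of M-values (TMM) factors to a common library size. Among marker genes, VIM had group means from 17136 to 47402 and PGR had at most 9.97 in any library. The receptor gene ERBB2 was counted in all lines, with group means from 1412 in MDA-MB-231 KD to 3360 in BT549 EV. ESR1 had no row in the table, which lists no transcript at 0 in all 4 BT549 libraries. Its level in MDA-MB-231 and SUM159 is therefore not known from these counts. KRT8 and KRT18, keratins of epithelial cells, had group means from 4515 to 9774 in MDA-MB-231 and SUM159 and of at most 15.1 in BT549. Markers of leukocytes (PTPRC) and liver (ALB) were at 13.8 or below in each library. The endothelial gene PECAM1 reached 95.8 ± 10.0 in SUM159 KD against 24.7 ± 0.644 in SUM159 EV.

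MT2A dominated the family in every library. Expressed per length as TPM (counts per kilobase of transcript, scaled to a common total in each library), MT2A stood at 2055 ± 3.40 in MDA-MB-231 EV, 1251 ± 54.1 in SUM159 EV and 476 ± 13.3 in BT549 EV. These 3 controls did not overlap, and MDA-MB-231 had the highest level. Here and below, groups of 2 libraries can separate readily, and the share of all genes that do so was not counted. The order of the other members depended on the line. In MDA-MB-231 EV, MT1E (139 ± 2.49 TPM) stood above MT1X (90.5 ± 5.40 TPM). SUM159 EV had the opposite order, with MT1X at 171 ± 19.4 TPM and MT1E at 14.6 ± 1.47 TPM. In BT549 EV, MT1X (50.3 ± 2.06 TPM) and MT1E (48.0 ± 0.265 TPM) were close: the library values were 48.8 and 51.8 TPM for MT1X and 48.2 and 47.8 TPM for MT1E. MT1F reached 8.53 ± 2.19 TPM there, was at 0.876 ± 0.0765 TPM in SUM159 EV and was not counted in MDA-MB-231.

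**Figure D1:**
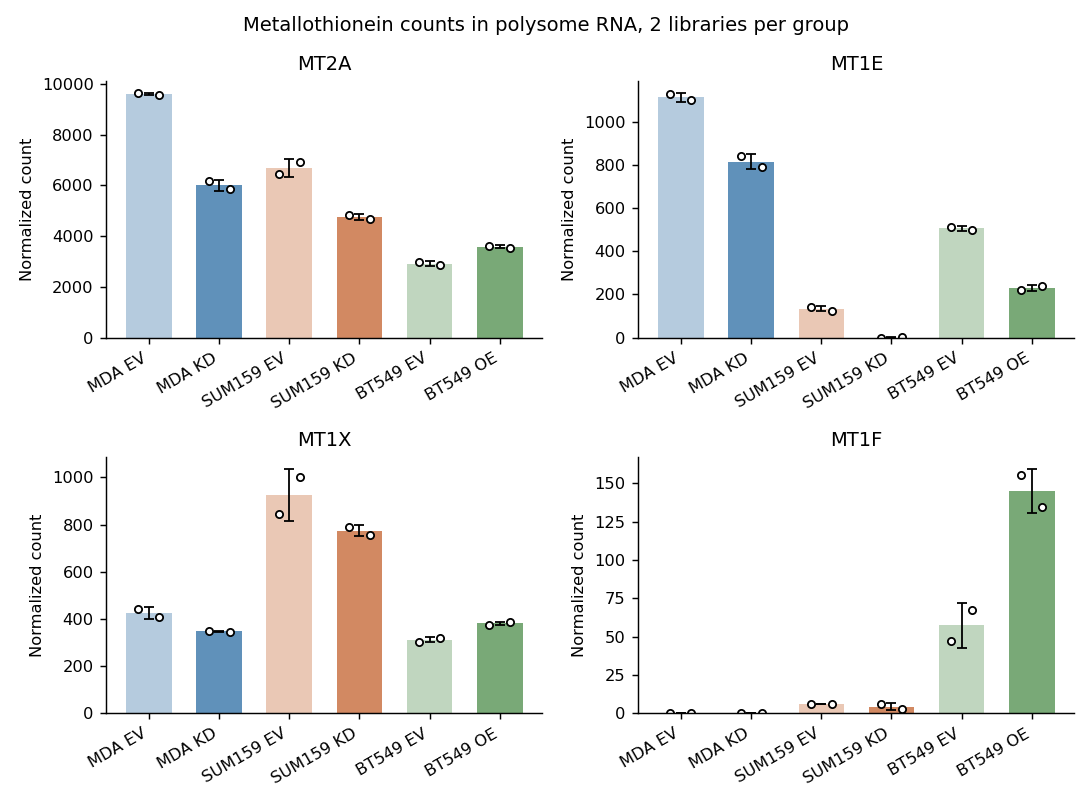
Normalized counts (y axis) of MT2A, MT1E, MT1X and MT1F in the 6 groups (x axis; MDA stands for MDA-MB-231), with bars for the mean, whiskers for ± SD and circles for the 2 libraries. MT1E is at 133 in SUM159 EV and at 0.432 in SUM159 KD, while MT1F is highest in BT549 OE at 145.

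MT2A, ordered by normalized count over the 6 groups, ran from MDA-MB-231 EV through SUM159 EV, MDA-MB-231 KD, SUM159 KD and BT549 OE to BT549 EV. Its highest library had 9618 and its lowest 2846. The lower SUM159 EV library (6437) lay above the higher MDA-MB-231 KD library (6159) by less than the SUM159 EV libraries differed from each other, so these neighbours did not differ beyond their spread. The other neighbours in this order were separated by more than the gap within either group. For MT1E the order was MDA-MB-231 EV, MDA-MB-231 KD, BT549 EV, BT549 OE, SUM159 EV and SUM159 KD, with no overlap between any neighbours. For MT1X it was SUM159 EV, SUM159 KD, MDA-MB-231 EV, BT549 OE, MDA-MB-231 KD and BT549 EV. For MT1X the gap between neighbouring groups was smaller than the gap within the higher group in 2 places, SUM159 EV (847 and 1003) above SUM159 KD (790 and 758), and MDA-MB-231 EV (444 and 408) above BT549 OE (375 and 386). With scaling by total counts alone, the median log2 difference over all genes was -0.34 for BT549 EV against MDA-MB-231 EV and -0.27 for BT549 EV against SUM159 EV, so levels across lines are less certain than levels within a line.

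In MDA-MB-231, the 3 members that were counted were all lower in KD than in EV. MT2A had normalized counts of 9618 and 9576 in the EV libraries and 6159 and 5846 in the KD libraries. No KD library reached an EV library, and the log2 fold change was -0.68 (SE 0.04). MT1E, the second most abundant member in this line, had 1125 and 1098 in EV and 839 and 789 in KD, a log2 fold change of -0.45 (SE 0.07). MT1X had 444 and 408 in EV and 349 and 345 in KD, and its log2 fold change was -0.29 (SE 0.09). The groups did not overlap for any of the 3, a separation whose share over all genes was not counted. In bulk libraries, fewer cells with an mRNA and less of it per cell cannot be told apart. Fold changes here come from the same edgeR model as the tests of the other genes, and in that model 16.5% of 16538 genes were called lower in this comparison and 21.2% higher at an adjusted p under 0.05. The median absolute log2 fold change over all genes tested was 0.230.

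SUM159 gave the most extreme value of the family. MT1E had 141 and 124 counts in the EV libraries and 0 and 1 in the KD libraries. As a ratio of summed counts, 265 in EV against 1 in KD, corrected for library size, MT1E was 287 times higher in EV, with an exact 95% interval from 51.0 to 11366 that covers counting error only. This MT1E count in KD lies within the 3 counts that a count of 0 allows. Of the 10758 genes with a mean of at least 100 normalized counts in SUM159 EV, 10 had at most 3 counts in each SUM159 KD library, and MT1E was among them. The same criterion found 0 of 10965 genes in MDA-MB-231 and 70 of 10741 in BT549.

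The other SUM159 members were lower by smaller amounts. MT2A had 6437 and 6926 normalized counts in EV and 4844 and 4684 in KD, a log2 fold change of -0.49 (SE 0.04). MT1X had 847 and 1003 in EV and 790 and 758 in KD, a log2 fold change of -0.26 (SE 0.08). For both genes the EV libraries were above the KD libraries. The MT1X value was -0.13 without SUM159 EV replicate 2 and -0.38 without SUM159 EV replicate 1, so it depended on 1 library. The MT2A change was close to the median absolute log2 fold change of all genes in this line, which was 0.464. MT1F had 6 and 6 counts in EV and 6 and 3 in KD, and its log2 fold change of -0.51 had an SE of 0.68. Of all genes tested, 31.4% were called lower and 28.6% higher in this comparison. The KD difference of MT2A was smaller in size in SUM159 than in MDA-MB-231 by 0.19 (SE 0.05), and that of MT1X differed between the lines by 0.04 (SE 0.12). The background for such differences is wide, since 50.9% of all genes tested were called for a difference between the KD effects of the lines.

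BT549 OE did not mirror KD for every member. MT2A had 2986 and 2846 normalized counts in EV and 3617 and 3545 in OE, a log2 fold change of 0.30 (SE 0.04). MT1X had 304 and 319 in EV and 375 and 386 in OE, a log2 fold change of 0.29 (SE 0.10). Both were thus higher with added TRMT112, the reverse of their direction in KD. MT1E went the other way: it had 514 and 497 normalized counts in EV and 219 and 241 in OE, a log2 fold change of -1.13 (SE 0.10). MT1E was thereby lower in all 3 comparisons. In BT549, 35.6% of all genes tested were called higher and 35.0% lower, with a median absolute log2 fold change of 0.705, so that the MT2A and MT1X differences were smaller than that of the typical gene.

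**Figure D2:**
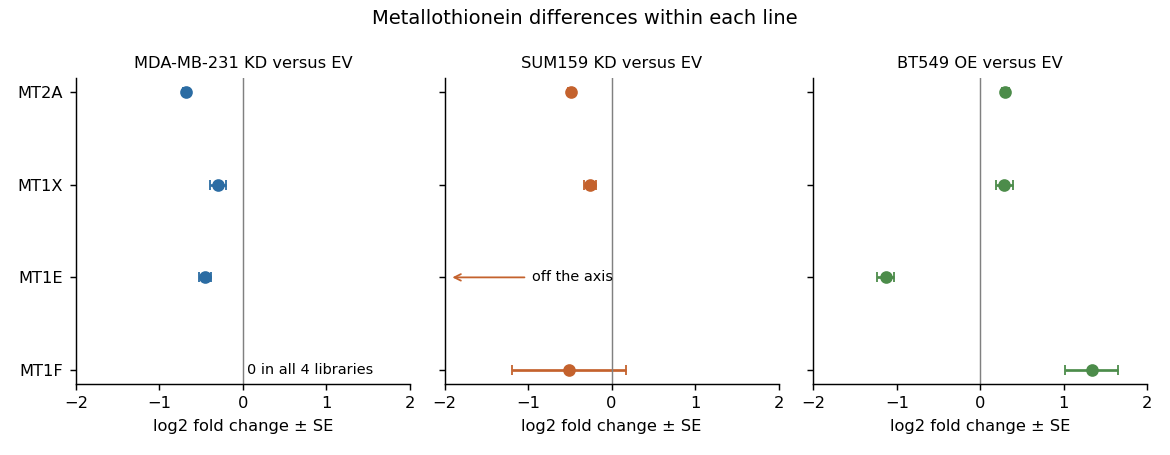
Log2 fold changes (x axis) with whiskers for ± SE of 4 members (y axis) in the 3 comparisons within a line, from the 2 libraries per group. MT2A and MT1X lie left of 0 in both KD comparisons and right of 0 in BT549 OE, while MT1E lies left in all, off the axis in SUM159 (265 counts in EV against 1 in KD).

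MT1F was counted mainly in BT549. It had 0 counts in all 4 MDA-MB-231 libraries, 3 to 6 in the SUM159 libraries, 43 and 61 in BT549 EV and 140 and 119 in BT549 OE. The BT549 groups did not overlap, with normalized counts of 47.1 and 67.5 in EV and of 155 and 135 in OE, and the log2 fold change was 1.34 (SE 0.32). A count of 0 allows up to 3 counts in a library, so MT1F in MDA-MB-231 was not detectable at this depth.

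MT1G and MT1M had no usable counts and did not pass the filter on low counts. MT1G had 2 counts in 1 SUM159 KD library, 1 in 1 BT549 EV library, 4 and 1 in the BT549 OE libraries and 0 elsewhere. MT1M had 7 and 11 counts in the BT549 OE libraries and 0 in all others. The mean normalized count of MT1M in BT549 OE (10.1) was 3.06 times a floor of 3 counts per library in BT549 EV. This ratio leaves out the counting error of the OE libraries, so it is no lower bound. Its single transcript carries a question mark in place of a number in the 8 MDA-MB-231 and SUM159 columns, which was counted as 0. Of the 15 other metallothionein symbols in the annotation, MT3, the form known from brain, was listed, with 1 count in 1 BT549 OE library. The table lists no transcript at 0 in all 4 BT549 libraries, so metallothioneins without a count in BT549 were not analysed here in the other lines.

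Nearly all counts of each abundant member came from 1 transcript. ENST00000245185.6 held 99.6% of the MT2A counts, ENST00000394485.5 99.0% of those of MT1X, ENST00000306061.10 97.9% of those of MT1E and ENST00000334350.7 92.2% of those of MT1F. The MT1E transcript is 704 nucleotides long and the other 3 are between 401 and 425, which lowers the TPM of MT1E relative to its count. Retained-intron transcripts were a small part of MT2A (0.162%) and MT1F (6.32%). In SUM159 EV, ENST00000306061.10 held 138 and 121 of the MT1E counts, so the near absence of MT1E in SUM159 KD is that of this transcript.

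A sum over the family is mostly MT2A and for that reason largely follows it. Summed over the 6 members, normalized counts were 11135 ± 74.4 in EV and 7164 ± 260 in KD of MDA-MB-231, a log2 difference of -0.64. In SUM159 they were 7746 ± 444 in EV and 5544 ± 137 in KD, a log2 difference of -0.48. BT549 had 3791 ± 85.1 in EV and 4350 ± 41.1 in OE, a log2 difference of 0.20. The SD of these differences, from the spread between libraries, was 0.05, 0.09 and 0.04. The normalized sum was thus lower in both KD lines and higher in BT549 OE. It is relative to the other counted polysome RNA. The study reports smaller polysome peaks in KD and larger ones in OE, and scaling to a common library size does not keep such a difference. These libraries hold polysome fractions without matching total RNA, so the amount of an mRNA and its loading with ribosomes cannot be told apart.

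Within that sum the shares shifted. MT2A held 76.3% to 86.6% of the member counts in every library. MT1E held 10.1% and 9.90% in MDA-MB-231 EV and 11.4% and 11.3% in KD, so its share did not go down there. In SUM159 it went from 1.91% and 1.55% in EV to 0% and 0.0159% in KD, and MT1X held 11.4% and 12.4% in EV and 14.0% and 13.9% in KD. In BT549 the MT1E share was 13.3% in both EV libraries and 5.01% and 5.58% in OE, where MT1F took 3.54% and 3.12%.

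**Figure D3:**
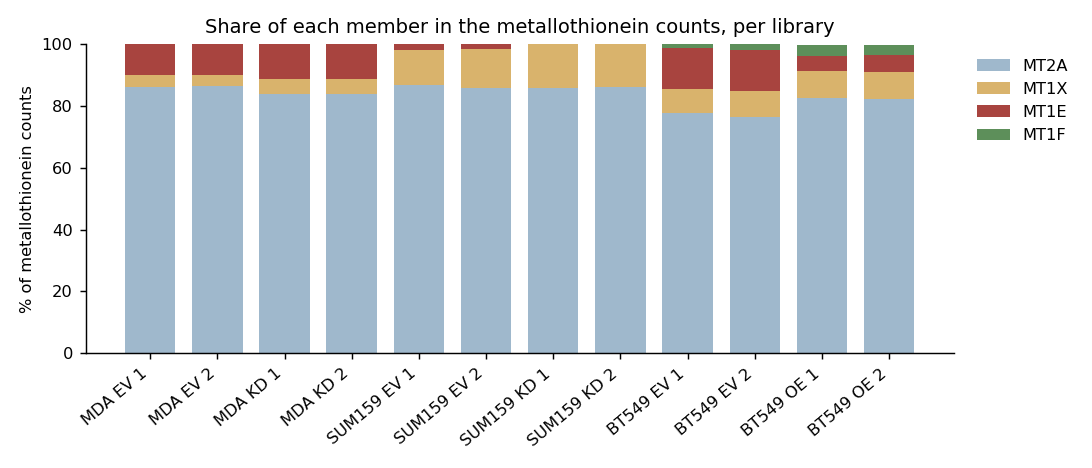
Percent of the summed metallothionein counts (y axis) held by MT2A, MT1X, MT1E and MT1F in each of the 12 libraries (x axis; MDA stands for MDA-MB-231). MT1E takes about 10% in MDA-MB-231, under 2% in SUM159 EV and 13.3% in BT549 EV.

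The members' levels were compared with each other over the 12 libraries. Pearson's r of log2 normalized counts was 0.18 between MT2A and MT1E, 0.35 between MT2A and MT1X and -0.67 between MT1E and MT1X. These are descriptions over 12 libraries that fall into 6 tight groups and share their line. Among 12578 other genes with a mean of at least 50 normalized counts, the patterns most like MT2A were those of TYW5 (r = 0.98), NEMP2 (r = 0.98) and TTC21B (r = 0.98), all highest in MDA-MB-231 EV and lowest in BT549 EV. Those most like MT1E were RIMKLB, ACOT2 and UBASH3B (r = 0.99 each), all lowest in SUM159 KD. POLR1A, LRIF1 and FBXO45 (r = 0.98 each) were most like MT1X, highest in SUM159 EV and lowest in BT549 EV.

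Genes that handle zinc changed in both directions in each line. Of 19 tested genes of zinc handling, that is MTF1 and the SLC30 exporters and SLC39 importers, edgeR called 6 higher and 4 lower in MDA-MB-231 KD, 10 and 6 in SUM159 KD, and 9 and 8 in BT549 OE. Their median log2 fold change was 0.09, 0.07 and 0.05, against 0, 0 and 0.02 for all genes tested. In either direction, 52.6%, 84.2% and 89.5% of these genes were called, against 37.7%, 60.1% and 70.6% of all genes tested in MDA-MB-231 KD, SUM159 KD and BT549 OE. MTF1, the metal-responsive activator of the family, rose in both KD lines, from 511 ± 0.258 to 655 ± 8.93 normalized counts in MDA-MB-231 (log2 fold change 0.36, SE 0.07, edgeR adjusted p = 0.000284) and from 428 ± 0.478 to 581 ± 15.4 in SUM159 (0.44, SE 0.07, adjusted p = 1.82e-05). It fell in BT549 OE, from 1213 ± 5.15 to 492 ± 38.3 (-1.30, SE 0.07, adjusted p = 4.39e-14). The sign of the MTF1 change was opposite to that of MT2A and MT1X in each line. MT1E went against MTF1 in the KD lines but fell with it in BT549 OE (-1.13), where MT1F rose (1.34).

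SLC30A1, the plasma membrane zinc exporter and another target of MTF1, went down with it in BT549 OE and not up with it in the KD lines. Its mean was 310 ± 33.5 in EV and 333 ± 1.89 in KD of MDA-MB-231 (log2 fold change 0.10, SE 0.10, edgeR adjusted p = 0.449). It fell in SUM159 KD, from 832 ± 30.8 to 541 ± 0.747 (-0.62, SE 0.08, adjusted p = 3.51e-07), and in BT549 OE, from 1109 ± 84.3 to 537 ± 43.1 (-1.05, SE 0.08, adjusted p = 3.63e-11). Among the importers, SLC39A7, which releases zinc from the endoplasmic reticulum, rose in all 3 comparisons by 0.41, 0.52 and 0.18 on the log2 scale, as did SLC39A13 by 0.38, 1.11 and 0.40. SLC39A14, which carries zinc and manganese, fell in SUM159 KD (-1.14, SE 0.04) and BT549 OE (-0.65, SE 0.03), and its value in MDA-MB-231 KD was -0.07 (SE 0.04). SLC39A4 fell in MDA-MB-231 KD (-0.39, SE 0.07) and rose in BT549 OE from 741 ± 8.13 to 2609 ± 135 (1.82, SE 0.07).

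Of 14 tested genes of copper handling, 2 were called higher and 3 lower in MDA-MB-231 KD, 5 and 6 in SUM159 KD, and 6 and 6 in BT549 OE, with median log2 fold changes of 0.08, 0.01 and 0.12. In either direction, 35.7%, 78.6% and 85.7% were called, against 37.7%, 60.1% and 70.6% of all genes tested. The copper importer SLC31A1 fell in SUM159 KD (-0.34, SE 0.04) and in BT549 OE (-0.65, SE 0.04). Its relative SLC31A2 rose in SUM159 KD from 117 ± 20.3 to 276 ± 10.1 and fell in BT549 OE from 537 ± 15.2 to 117 ± 10.5. STEAP3, a metalloreductase, rose in MDA-MB-231 KD (0.78, SE 0.06) and BT549 OE (0.88, SE 0.06) and fell in SUM159 KD (-0.83, SE 0.05). SCO1, which inserts copper into cytochrome c oxidase, fell in SUM159 KD (-0.72, SE 0.05) and rose in BT549 OE (0.89, SE 0.04).

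All 7 listed regulators of metallothionein genes were tested. In MDA-MB-231 KD, 3 were called higher and 3 lower, in SUM159 KD 2 and 5, and in BT549 OE 1 and 5, with median log2 fold changes of -0.01, -0.72 and -0.30, against 0, 0 and 0.02 for all genes tested. The regulators called in either direction were 6, 7 and 6 of 7, where 37.7%, 60.1% and 70.6% of all genes tested were called. NR3C1, the glucocorticoid receptor, rose in MDA-MB-231 KD from 1997 ± 13.2 to 2610 ± 19.5 (log2 fold change 0.39, SE 0.04, edgeR adjusted p = 5.64e-08). It fell in SUM159 KD from 2833 ± 14.3 to 1723 ± 81.6 (-0.72, SE 0.04, adjusted p = 2.96e-13) and in BT549 OE from 3897 ± 12.6 to 3402 ± 58.9 (-0.20, SE 0.04, adjusted p = 7.53e-05). STAT3, which carries signals of interleukin-6 type cytokines, rose in MDA-MB-231 KD (0.11, SE 0.04) and fell in SUM159 KD (-1.25, SE 0.05) and BT549 OE (-1.38, SE 0.04). NFE2L2, the activator of the oxidative stress response, fell in all 3 comparisons, by 0.13 in MDA-MB-231 KD, by 1.02 in SUM159 KD and by 0.73 in BT549 OE on the log2 scale. HIF1A, the hypoxia factor, fell in MDA-MB-231 KD (-0.28, SE 0.05) and SUM159 KD (-0.63, SE 0.04), and its value in BT549 OE was -0.09 (SE 0.05). USF1 rose in both KD lines (0.24 each) and fell in BT549 OE (-0.70, SE 0.05), whereas USF2 fell in MDA-MB-231 KD (-0.32, SE 0.05) and rose in the other two.

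Glucocorticoid-responsive genes were examined because hydrocortisone, at 1 µg/mL, was part of the SUM159 medium alone. Of the 13 tested genes, 8 had their highest control level in SUM159 EV (61.5%, against 33.1% of all genes tested). FKBP5, a co-chaperone of the receptor and a standard readout of the hormone, stood at 25055 ± 177 in SUM159 EV, 1315 ± 68.0 in MDA-MB-231 EV and 1720 ± 86.9 in BT549 EV. TSC22D3 stood at 36569 ± 330, 1607 ± 129 and 9.92 ± 3.19 in the same groups, and KLF9 at 7925 ± 194, 559 ± 3.89 and 434 ± 9.78. Other genes of the list did not peak there. SGK1 had 67.6 and 68.4 in the SUM159 EV libraries, 685 and 702 in MDA-MB-231 EV and 949 and 1005 in BT549 EV, and the means of ERRFI1 in the same groups were 3630 ± 87.0, 14493 ± 13.3 and 6639 ± 73.8. DUSP1 was at 3808 ± 6.32 in SUM159 EV and 8970 ± 124 in MDA-MB-231 EV, above 521 ± 78.1 in BT549 EV. SGK1 and DUSP1 were chosen for mention after their values were seen. MT1X was likewise highest in SUM159 EV, and MT2A, MT1E and MT1F were not. MT1E was lowest there among the controls, at 133 ± 12.5 against 1111 ± 19.4 in MDA-MB-231 EV and 505 ± 11.6 in BT549 EV. MT1F was highest in BT549 EV, at 57.3 ± 14.5. The line and its medium cannot be told apart here.

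Within the lines, 3 of these 13 genes were called higher and 2 lower in MDA-MB-231 KD, 4 and 6 in SUM159 KD, and 7 and 4 in BT549 OE, with median log2 fold changes of -0.02, -0.35 and 0.50. The shares called in either direction were 38.5%, 76.9% and 84.6%, against 37.7%, 60.1% and 70.6% of all genes tested. In SUM159 KD, where MT2A, MT1E and MT1X were all lower, TSC22D3 fell from 36569 ± 330 to 22629 ± 128, GLUL from 9477 ± 4.29 to 5401 ± 76.1 and NFKBIA from 3955 ± 96.5 to 1339 ± 24.3. FKBP5 had 25055 ± 177 in EV and 24420 ± 695 in KD (edgeR adjusted p = 0.392), and KLF9 7925 ± 194 and 8294 ± 271 (adjusted p = 0.101). In BT549 OE, FKBP5 fell from 1720 ± 86.9 to 206 ± 37.2 and TSC22D3 rose from 9.92 ± 3.19 to 434 ± 10.7. ERRFI1, a feedback inhibitor of the EGF receptor, fell in MDA-MB-231 KD (-0.44, SE 0.03) and rose in SUM159 KD (0.53, SE 0.03) and BT549 OE (0.88, SE 0.03).

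**Figure D4:**
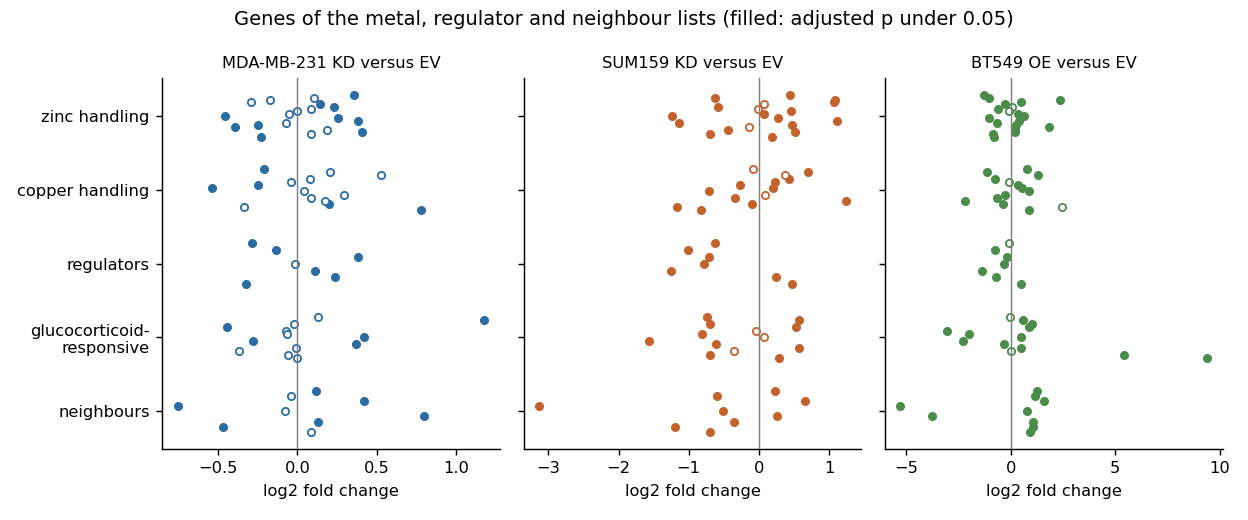
Log2 fold changes (x axis, a separate range in each panel) of the genes of 5 lists (y axis) in the 3 comparisons, with filled points for genes at an adjusted p under 0.05 by edgeR and open points for the others. Every list has genes on both sides of 0 in each comparison, for example 6 higher and 4 lower in zinc handling in MDA-MB-231 KD.

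The genes on either side of the cluster were examined because neighbours on a chromosome can change together with it. The annotation has 12 other protein-coding genes that start within 500 kb of the cluster, and 9 of them were tested. Of these, 4 were called higher and 2 lower in MDA-MB-231 KD, 3 and 6 in SUM159 KD, and 7 and 2 in BT549 OE, with median log2 fold changes of 0.09, -0.52 and 1.05, against 0, 0 and 0.02 for all genes tested. Of all genes tested, 21.2% were called higher and 16.5% lower in MDA-MB-231 KD, 28.6% and 31.4% in SUM159 KD, and 35.6% and 35.0% in BT549 OE. NUP93, a nuclear pore gene that starts 121.5 kb from MT2A and is the nearest tested gene beyond MT1X, fell in MDA-MB-231 KD (-0.47, SE 0.05) and SUM159 KD (-1.20, SE 0.06) and rose in BT549 OE (1.07, SE 0.07), the same directions as MT2A. GNAO1, a G protein subunit gene that starts at -417.2 kb, on the other side, fell in all 3 comparisons like MT1E, from 388 ± 15.4 to 230 ± 2.17 in MDA-MB-231 KD, from 360 ± 1.71 to 40.8 ± 3.49 in SUM159 KD and from 764 ± 55.4 to 19.6 ± 1.10 in BT549 OE. How many of all genes moved in the directions of MT2A or of MT1E in the 3 comparisons was not counted. CPNE2 rose in all 3, by 0.42, 0.65 and 1.60 on the log2 scale. NLRC5, the activator of class I antigen presentation genes, rose in both KD lines (0.80 and 0.26) and fell in BT549 OE (-3.75, SE 0.09). MT1E thus sat between MT2A and MT1X on the chromosome and was the member whose direction in BT549 OE differed from both.

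**Figure D5:**
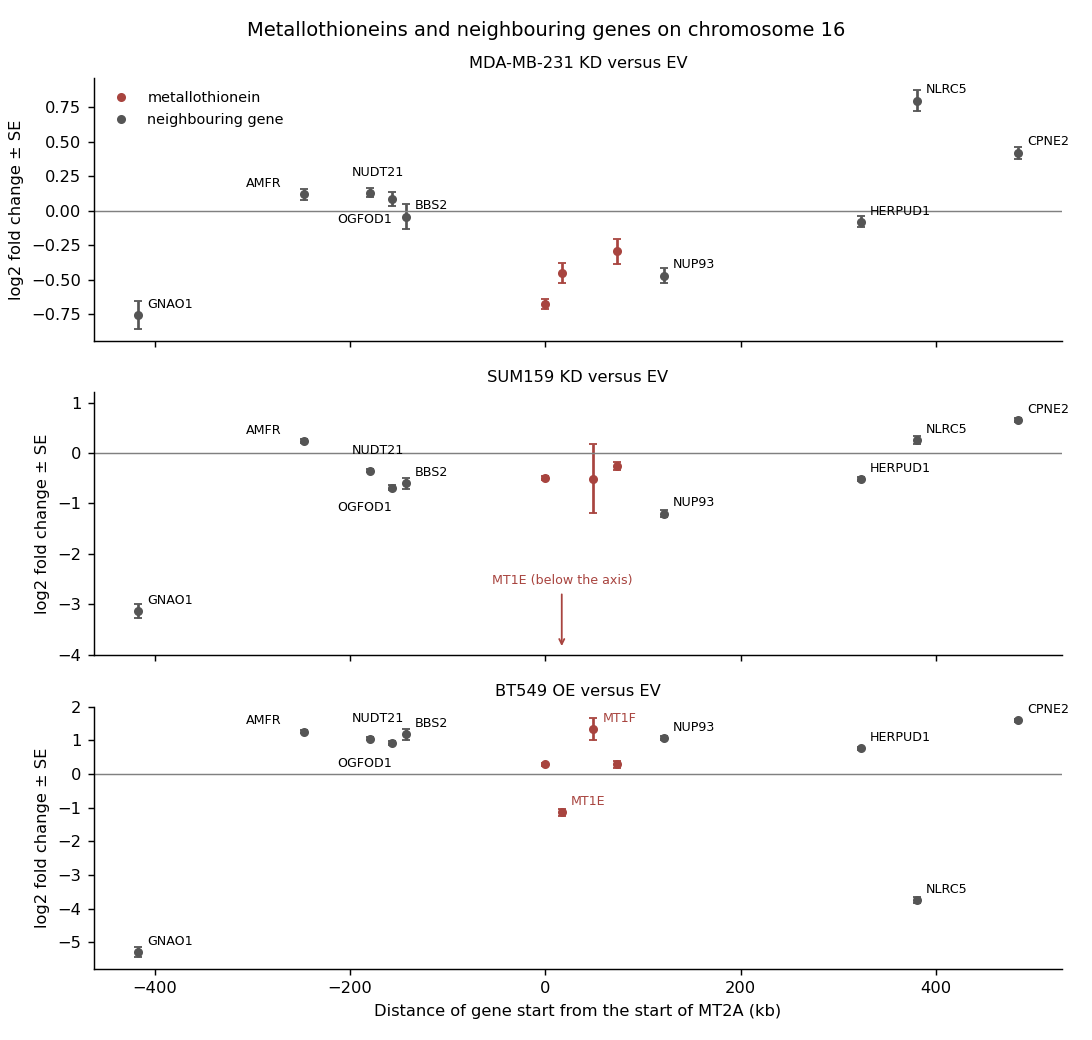
Log2 fold changes with whiskers for ± SE (y axis, a separate range in each panel) of the tested members and of 9 neighbouring genes, by the distance of the gene start from that of MT2A in kb (x axis). In BT549 OE, MT1E has a log2 fold change of -1.13, MT2A of 0.30 and MT1F of 1.34, and in SUM159 KD MT1E lies below the axis.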

How the data were processed

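The 12 libraries came from polysome fractions of 3 established cell lines, and the labels gave their 6 groups. Per the methods, Trimmomatic trimming and HISAT2 alignment (GRCh38) were followed by duplicate removal in SAMtools, which counts fragments with the same ends once and can lower the count of short, abundant transcripts. The counting tool and strand setting are not given in the sources used here. The labels name a poly(A) kit and the methods an rRNA-depleted stranded one. The values the authors deposited are expected counts of Ensembl transcripts and are not normalized, and their 8 MDA-MB-231 and SUM159 columns carry a question mark in 5.08% of rows, counted here as 0. Depth was 22954226 to 27434677 counts per library.

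Transcripts were matched to GENCODE 44 without version (79.6% of them, 99.2% to 99.4% of counts), summed to 24559 symbols and rounded. Genes passing filterByExpr (16538) were fitted with edgeR 4.0.16 (TMM, quasi-likelihood, 1 model of 6 group means, 6 residual degrees of freedom) in R 4.3.3 and called at an adjusted p under 0.05 (Benjamini-Hochberg). Tables were made with Python 3.11.15. Each SE of a fold change is its absolute value divided by the square root of the quasi-likelihood F statistic, and so is derived from the test. Intervals and the floor of 3 counts cover counting error only. The members and lists were chosen with earlier results of these data known. Named genes were the members, MT3, TRMT112, for each list the 3 genes with the smallest p per comparison plus MTF1, SLC30A1 and NR3C1, and the 3 genes most correlated with each member that has a mean of at least 50. Alternatives were RLE size factors, total counts alone, DESeq2 1.42.0, no filter, a replicate block, leaving out marked transcripts, the main transcript alone and leaving out each library. The fit was tested on simulated data with far fewer changed genes and otherwise equal group means. That test does not cover changes as broad as these.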

Additional observations from a re-analysis of the deposited data

Results flagged for a closer look

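Among the named genes of the lists, 8 changed in opposite directions in the KD cells of MDA-MB-231 and SUM159, with a test of the difference between the KD effects in the edgeR model. The difference, SUM159 minus MDA-MB-231 on the log2 scale, was -1.61 for STEAP3 (adjusted p = 1.74e-14), -1.36 for STAT3 (adjusted p = 1.3e-14), -1.10 for NR3C1 (adjusted p = 1.41e-13) and -0.30 for SOD1 (adjusted p = 1.02e-05). It was 0.98 for ERRFI1 (adjusted p = 1.97e-14), 0.80 for USF2 (adjusted p = 1.26e-10), 0.74 for COX17 (adjusted p = 6.83e-05) and 0.42 for SLC39A9 (adjusted p = 1.16e-06). Of all 16538 genes tested, 12.2% met the same criteria, that is effects called in both lines with opposite signs and a called difference. The 8 genes come from 29 that were named for small p-values, so the shares cannot be compared.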

How the results depend on the processing

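The log2 fold changes of MT2A, MT1E and MT1X kept their sign under all 19 alternatives in each line. MT1F, with few counts, lay between 1.09 and 1.61 in BT549 OE and between -1.18 (without KD replicate 1) and 0.0047 (without KD replicate 2) in SUM159 KD, where it turned sign. MT2A lay between -0.77 and -0.64 in MDA-MB-231 KD, between -0.54 and -0.43 in SUM159 KD and between 0.26 and 0.33 in BT549 OE. MT1X lay between -0.38 and -0.24, between -0.38 and -0.13 and between 0.25 and 0.32. MT1E lay between -0.54 and -0.40 in MDA-MB-231 KD and between -1.21 and -1.07 in BT549 OE. Its fitted value in SUM159 KD ran from -10.04 without KD replicate 2 to -7.08 without KD replicate 1, the libraries with 1 and 0 counts. Without each library in turn, the summed difference ran from -0.67 to -0.60, from -0.54 to -0.42 and from 0.18 to 0.22 in the 3 lines. With total counts alone, the summed difference in MDA-MB-231 was -0.73 instead of -0.64, and SCO1 (-0.0511) and SLC31A1 (-0.00398) in MDA-MB-231 KD turned sign. FKBP5 in SUM159 KD turned to 0.0173 with RLE size factors and to 0.0173 with DESeq2. Leaving out each library in turn, SLC30A1 in MDA-MB-231 KD ran from -0.00341 (without EV replicate 1) to 0.223 (without EV replicate 2), and TSC22D3 from -0.133 (without EV replicate 2) to 0.0252 (without EV replicate 1). None of these 5 genes passed the test in that comparison with TMM. With the main transcript alone, 20 listed genes were called in MDA-MB-231 KD instead of 32. The causes were not tested. Same-numbered libraries did not deviate together (r = 0.02, -0.03 and 0.01 over 12581 genes). This does not show whether they were prepared together, which the labels do not say. With a replicate block, 34, 53 and 55 listed genes were called, against 32, 53 and 55. The summed counts come from no test, so DESeq2, the filter and the block give them no value. Of the named listed genes' values under the alternatives, 1599 kept direction and call, 31 lost the call, 17 gained it and 6 turned sign. Leaving out a library leaves a group with 1 sample, assumed to vary like the others. Depth limits MT1F, MT1G and MT1M, whose counts are few.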
